A study of Mus musculus with 24 samples.

Results

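Bone marrow CD11b+ cells of STAT6-KO mice were set against those of HDC-KO mice on 3 pairs of arrays, 1 pair from mice without infarction (control), 1 from mice 2 weeks after myocardial infarction (MI 2 weeks) and 1 from mice 4 weeks after it (MI 4 weeks). These 6 of the 24 arrays of the series were chosen by their labels for genotype, tissue and time point, and all 19822 autosomal genes among the 32451 genes or transcripts on the array were considered, of which 16998 passed the filter on dim probes over the 6 arrays. Each array held the pooled RNA of 5 mice. The mice were male, of Balb/C background and 10 weeks old, and CD11b, the integrin subunit encoded by Itgam, was the marker by which the myeloid cells were isolated. The deleted parts of Hdc and Stat6 are not given in the sources used here.

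STAT6 is the transcription factor that IL-4 and IL-13 switch on. Binding of either cytokine to a receptor that contains IL-4Rα activates JAK kinases, which phosphorylate STAT6. The dimer then enters the nucleus and turns on genes such as Retnla, Ccl24 and Il1rn, the programme known from alternatively activated macrophages and eosinophil recruitment. HDC, histidine decarboxylase, is the enzyme that makes histamine. In bone marrow it marks immature CD11b+ myeloid cells as well as basophils and mast cells, and mice without it accumulate immature CD11b+ cells. Histamine acts on target cells through the receptors H1 to H4.

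A STAT6 dimer binds the paired letters TTC and GAA, most often with a spacing of 4 bases, TTCNNNNGAA, a letter pattern that reads the same on both strands. Of the 27 STAT6 target genes that were followed, 19 had a promoter in the RefSeq table (build GRCm38.p6), and 5 of them, Il1rn, Fcer2a, Ccl17, Retnla and Pdcd1lg2, held the pattern within the 250 bases before a transcription start. Over all promoters in the table, 5.85% of windows and 6.76% of genes held it. With a spacing of 3 bases, TTCNNNGAA, the pattern stood in 3 of the targets and in 8.13% of all genes. The windows of Retnla (chr16:48842359-48842608, plus strand, pattern starting at -145 from the start) and Il1rn (chr2:24345041-24345290, plus strand, pattern at -121) are shown as the targets whose values are described further on, with the pattern in capitals.
Retnla: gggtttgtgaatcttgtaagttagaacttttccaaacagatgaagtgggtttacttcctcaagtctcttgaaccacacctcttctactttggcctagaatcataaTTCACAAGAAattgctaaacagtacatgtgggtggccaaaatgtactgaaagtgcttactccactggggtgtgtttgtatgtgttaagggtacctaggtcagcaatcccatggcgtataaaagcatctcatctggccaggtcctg
Il1rn: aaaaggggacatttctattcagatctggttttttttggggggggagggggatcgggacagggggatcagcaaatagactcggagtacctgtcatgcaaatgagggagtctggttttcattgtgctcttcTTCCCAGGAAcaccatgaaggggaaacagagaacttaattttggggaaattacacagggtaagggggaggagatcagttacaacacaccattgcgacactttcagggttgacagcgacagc

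Levels are log2 processed signals minus the 75th percentile of the same array, so that 0 is the 75th percentile of that array and 1 unit is a 2-fold difference between arrays for a given probe. Differences are STAT6-KO minus HDC-KO. There was 1 array per condition and no replicate of any condition, so no p-value measures a spread between replicates. In the fit of the pairs alone, the error of a difference rests on its spread between time points. The wider fit used below gave all printed adjusted p-values without another label. Its error rests on the departure of all its bone marrow arrays, WT included, from additive time point and genotype terms. Each slide held 1 genotype of 1 tissue, so that genotype and slide cannot be told apart. Itgam was at 5.22 to 5.60 on the HDC-KO arrays and at 5.71 to 5.85 on the STAT6-KO arrays, and the myeloid genes Itgb2, Csf3r, Cd33 and Lyz2 were well above background on all 6. The readings of Xist go against the description of the animals. Xist, the RNA that coats the inactive X chromosome of female cells, stood at -1.60, -1.57 and -1.16 on its brighter probe on the 3 HDC-KO arrays and at -3.18 on the STAT6-KO control array, against -8.43 and -8.69 on the other 2 STAT6-KO arrays and -8.96 to -7.85 on the 4 WT arrays, and the Y-linked Eif2s3y was lowest on the HDC-KO arrays. The part of this in the results was not tested, and with all 3 HDC-KO arrays of the pairs carrying it, no result could be given without them. Xist was not read on the HDC-KO array of 1 week, which enters the wider fit used below. Bulk arrays cannot tell fewer cells of a type from less RNA per cell.

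Hdc stood at 2.51, 2.78 and 2.36 on the HDC-KO arrays of control, MI 2 weeks and MI 4 weeks and at 5.04, 5.07 and 4.92 on the STAT6-KO arrays. The groups did not overlap, and the 4 WT arrays, at 5.11, 5.51, 4.75 and 5.11 for control and 1, 2 and 4 weeks, lay with STAT6-KO. The signal left in HDC-KO was well above background on all 3 arrays. Stat6 was lower in STAT6-KO at each time point on all 3 of its probes. Its brightest probe read 2.65, 2.99 and 3.05 on the HDC-KO arrays and 1.76, 2.34 and 2.32 on the STAT6-KO arrays, so that the groups did not overlap, although the gap was smaller than for Hdc. Since the deleted parts are not known here, neither reading checks the genotype by itself, but both went in the direction of the labels.

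**Figure D1:**
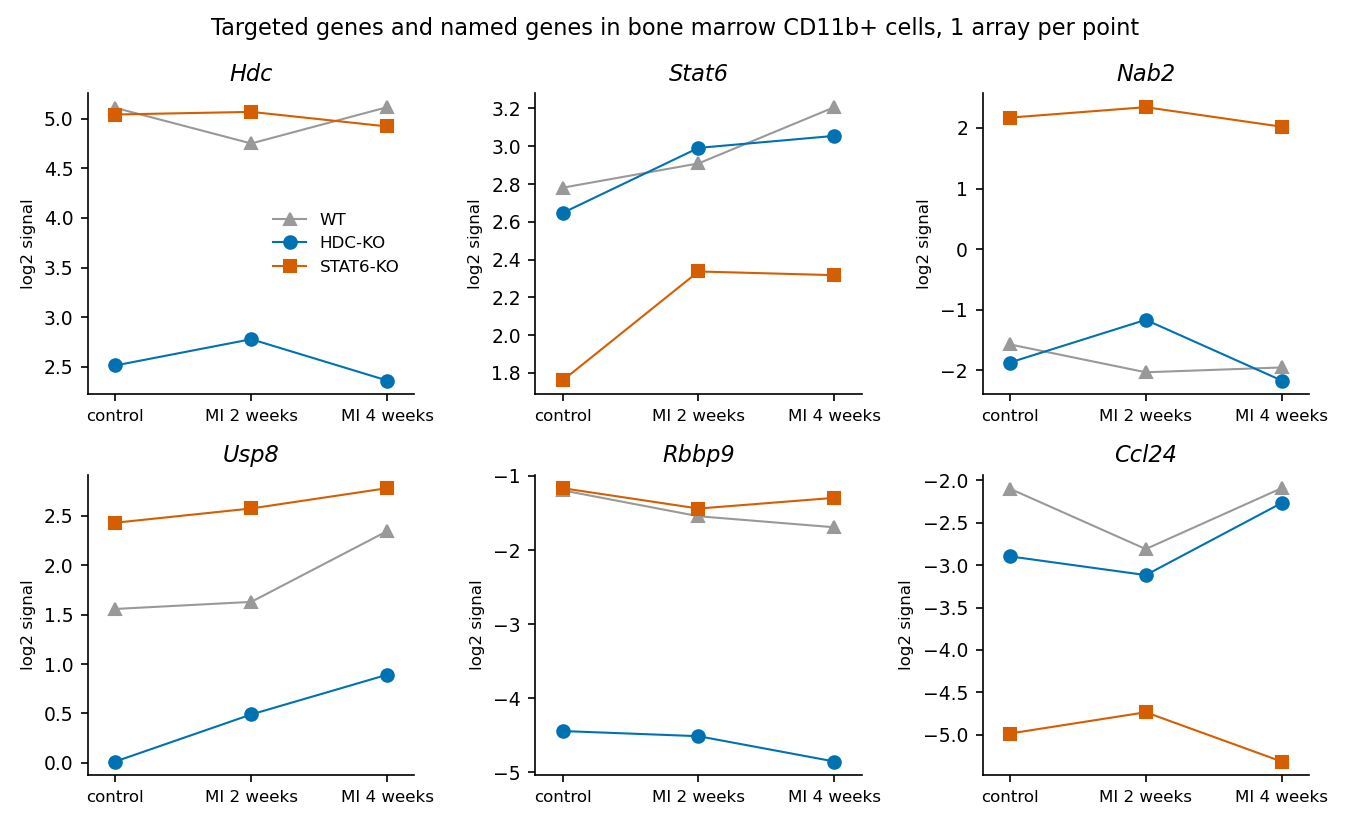
Level (log2 signal relative to the array's 75th percentile) of Hdc, Stat6, Nab2, Usp8, Rbbp9 and Ccl24 on the bone marrow arrays of WT (triangles), HDC-KO (circles) and STAT6-KO (squares) at control, MI 2 weeks and MI 4 weeks, 1 array per point. HDC-KO lies below the other genotypes for Hdc, Usp8 and Rbbp9, and STAT6-KO stands apart from them for Stat6, Nab2 and Ccl24.

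With the 6 arrays alone, fitted by limma with the time points as pairs, 0 of the 16998 autosomal genes reached an adjusted p under 0.05 (0.0%), while 3389 had an unadjusted p under 0.05. The lowest adjusted p was 0.0587, shared by 52 genes. Adding the other bone marrow arrays (4 of WT and the HDC-KO array of 1 week) gave 11 arrays and more degrees of freedom for the error. That fit had been listed as an alternative, and it is used below because the paired fit called no gene. Of 17129 autosomal genes tested, 732 (4.27%) rose in STAT6-KO against HDC-KO and 138 (0.806%) fell. Every one of these 870 had the same sign in all 3 pairs, which is no separate check, since the fit that chose them holds the same arrays. The calls depend on the time points: without the MI 2 weeks arrays 11 genes were called, without the MI 4 weeks arrays 237 and without the control arrays 282. Higher genes made up 84.1% of the calls with the 75th percentile as scale, 66.1% after quantile normalization (586 against 300) and 68.9% with the array median as scale (488 against 220).

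Hdc was higher by 2.55 (SE 0.21, adjusted p = 0.00211) on the log2 scale in STAT6-KO. For Stat6 the fitted difference of the brightest probe was -0.66 (SE 0.20, adjusted p = 0.0978), short of the threshold, and of the 2 other probes one passed (-1.55, adjusted p = 0.0265) and the other did not (-1.16, adjusted p = 0.0803). Set beside WT, Hdc differed in HDC-KO by -2.44 (adjusted p = 0.017, 9 arrays) and Stat6 in STAT6-KO by -0.83 (adjusted p = 0.0361, 9 arrays).

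Most genes that rose were well measured in both knockouts, but the largest fitted rises were not. Of the 732, 564 were well above background on all 6 arrays, a smaller share than the 14988 of all 16998 autosomal genes tested there. The median difference was 0.0009 over those 14988 genes and 0.59 over the other 2010. Of the 732, 75 were well above background on no HDC-KO array. Among these 75 were 10 of the 12 largest fitted rises, genes that have only a bound on their fold and no measured order among themselves. Ces2f, a carboxylesterase, was one of them. It read -7.69, -7.38 and -8.73 in HDC-KO, not well above background, and -2.86, -3.00 and -4.29 in STAT6-KO, at least 11.1-fold higher (adjusted p = 0.000665). WT was at -7.32, -7.02, -7.07 and -7.68, also not well above background, so that STAT6-KO stood apart from both. Ces2f thus passed the filter on dim probes through the STAT6-KO arrays, where it was high. The same form was seen for Sprr2e, a small proline-rich protein of epithelial envelopes (at least 8.69-fold, adjusted p = 0.0011), for Tmem100, an endothelial membrane protein (at least 7.05-fold, adjusted p = 0.00253), for the vomeronasal receptor Vmn1r174 (at least 5.31-fold, adjusted p = 0.00609) and for the beta-defensin Defb7 (at least 5.41-fold, adjusted p = 0.00564). Bounds set the STAT6-KO mean against the lowest signal of a probe well above background. The p-values of the 75 genes rest on HDC-KO readings that were not well above background, and the filter favoured a rise among them. Vash2, Ryr2, Kcnk2, Ankfn1 and Cts7 were also not well above background on any HDC-KO array, with bounds between 2.84-fold and 5.42-fold, and Plaat5, measured on 2 of 3 HDC-KO arrays, was higher by 3.49.

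Genes of families that myeloid cells are not known to use were among the calls, and some of their medians turned sign with the processing. Of the vomeronasal receptors (Vmn) tested 14 of 144 rose (9.72%), of the beta-defensins (Defb) 6 of 25 (24%) and of the keratins (Krt) 7 of 43 (16.3%), and 0 fell in each, while the olfactory receptors (Olfr), with 28 of 538 higher (5.2%) and 4 lower (0.743%), stood near the 4.27% and 0.806% of all autosomal genes. The families were picked after their values had been seen, and members that passed the filter through the STAT6-KO arrays had to be higher there. Over all 1064 Olfr genes on the array, with no filter, the median differences were 0.31 at control, 0.61 at 2 weeks and 0.16 at 4 weeks, beside 0.11, 0.08 and 0.05 over all 19822 autosomal genes on the array. After quantile normalization the Olfr medians were 0.06, 0.02 and -0.03, while those of Defb stayed above 0 (0.32, 0.12 and 0.09). With normexp background correction the median at 4 weeks was below 0 for Olfr (-0.44), Vmn (-0.40), Defb (-0.37) and Krt (-0.18), beside -0.16 over all autosomal genes. At control and 2 weeks the normexp medians stayed above 0, at 0.21 and 0.19 for Olfr and 0.28 and 0.30 for Defb. Scaling to the median or to detected probes kept the medians of these 4 families above 0. Of Olfr readings, 41.6% in HDC-KO and 43.2% in STAT6-KO were well above background.

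**Figure D2:**
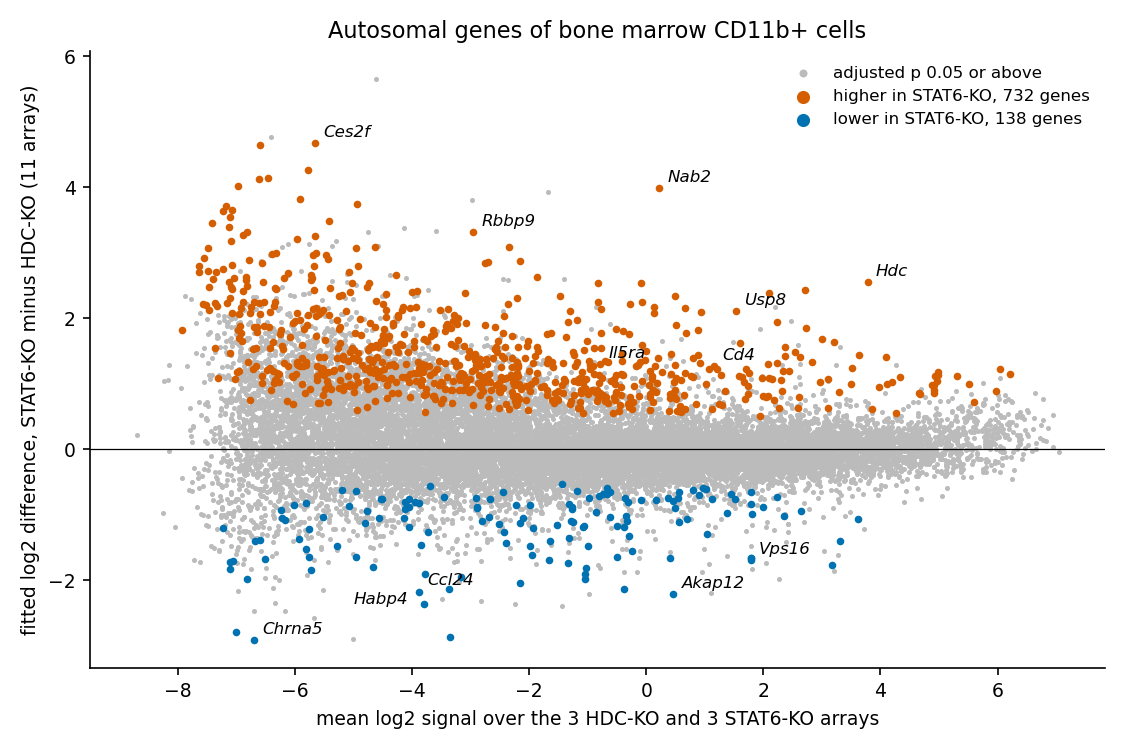
Fitted log2 difference between STAT6-KO and HDC-KO over 11 arrays for each autosomal gene tested, against its mean log2 signal over the 6 arrays. Of the coloured genes, 732 rose and 138 fell, and the largest fitted rises lie at the dim end of the horizontal axis.

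Among genes that were well measured in both knockouts, the largest rise belonged to Nab2, a corepressor of the EGR transcription factors whose gene lies next to Stat6 on chromosome 10, 0.018 Mb away by the starts of the 2 records in the RefSeq table. Nab2 was at -1.87, -1.17 and -2.17 in HDC-KO and at 2.17, 2.34 and 2.02 in STAT6-KO, a difference of 3.99 (SE 0.25, adjusted p = 0.000814). WT, at -1.57, -2.34, -2.03 and -1.95, lay with HDC-KO. A second Nab2 probe rose by 1.30 (adjusted p = 0.0155). Oas1d, an oligoadenylate synthetase relative, was at -3.58, -4.24 and -4.44 in HDC-KO and -1.43, -1.12 and -1.38 in STAT6-KO, higher by 2.85 (SE 0.22, adjusted p = 0.00178), with no overlap.

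On chromosome 2, the chromosome of Hdc, Rbbp9, Dtd1 and Usp8 were low in HDC-KO. Rbbp9, a serine hydrolase that binds the retinoblastoma protein, was at -4.44, -4.51 and -4.85 in HDC-KO and -1.16, -1.44 and -1.30 in STAT6-KO, higher by 3.32 (SE 0.14, adjusted p = 0.000336), and WT was at -1.19, -1.44, -1.54 and -1.69. Its second probe went the other way (-0.64, adjusted p = 0.0370), so the 2 probes of Rbbp9 disagree. Dtd1, a D-aminoacyl-tRNA deacylase, was at -0.84, -1.45 and -1.15 in HDC-KO and 1.01, 0.99 and 1.03 in STAT6-KO, higher by 2.25 (SE 0.21, adjusted p = 0.00253). Rbbp9 and Dtd1 lie 17.9 and 18.0 Mb from Hdc. Usp8, a deubiquitinase of endosomal sorting 0.114 Mb from Hdc, was at 0.01, 0.49 and 0.89 against 2.43, 2.57 and 2.78, higher by 2.10 (SE 0.16, adjusted p = 0.00156). All 3 genes had groups that did not overlap, and for each the WT mean lay nearer STAT6-KO than HDC-KO.

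On the other side, Vps16, a subunit of the complexes that tether late endosomes, and Chac1, which degrades glutathione, were high in HDC-KO. Vps16 was at 2.87, 2.56 and 2.37 in HDC-KO, 1.26, 0.96 and 0.68 in STAT6-KO and 0.59, 0.37, 0.57 and 0.22 in WT, lower in STAT6-KO by a fitted -1.69 (SE 0.15, adjusted p = 0.00227). For Chac1 the levels were 1.38, 1.72 and 0.89 and -0.37, -0.16 and -0.97, with a fitted difference of -1.67 (SE 0.27, adjusted p = 0.0174). Both genes lie within 10 Mb of Hdc, as do Itpa (-0.99, adjusted p = 0.0215), which clears damaged purine nucleotides, Adra2b (1.22, adjusted p = 0.0159), an adrenergic receptor, Cpxm1 (1.22, adjusted p = 0.0155) and Ctxn2 (3.26, adjusted p = 0.0266), which was well above background on 1 of 3 HDC-KO arrays. In that window 8 of 227 genes tested rose and 8 fell, 7.05% in all. In the window of the same width around Stat6, 7 of 149 rose, Nab2 and Erbb3 (1.39, adjusted p = 0.0286) among them, and 1 fell, Kif5a (-0.94, adjusted p = 0.0398), 5.37% in all. Over all autosomal genes tested, 4.27% rose and 0.806% fell, 870 of 17129 in all. Single whole autosomes, each with more genes than either window, ranged from 3.04% to 6.31%. Near Hdc, 11 of the 16 called genes were farther from WT in HDC-KO than in STAT6-KO. Near Stat6, 5 of 8 were farther from WT in STAT6-KO. Over all 870 calls HDC-KO was farther for 298 (34.3%) and STAT6-KO for 572 (65.7%), so that the share near Stat6 was close to that of all calls. These shares depended on direction, since HDC-KO was farther for 205 of the 732 that rose and 93 of the 138 that fell. Falls made up 8 of the 16 calls near Hdc but 138 of all 870. The WT mean behind these counts took in the 1 week array, a time point that the knockout means lacked. The plot of the neighbours by distance shows Nab2 and Usp8 beside the targeted genes.

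**Figure D3:**
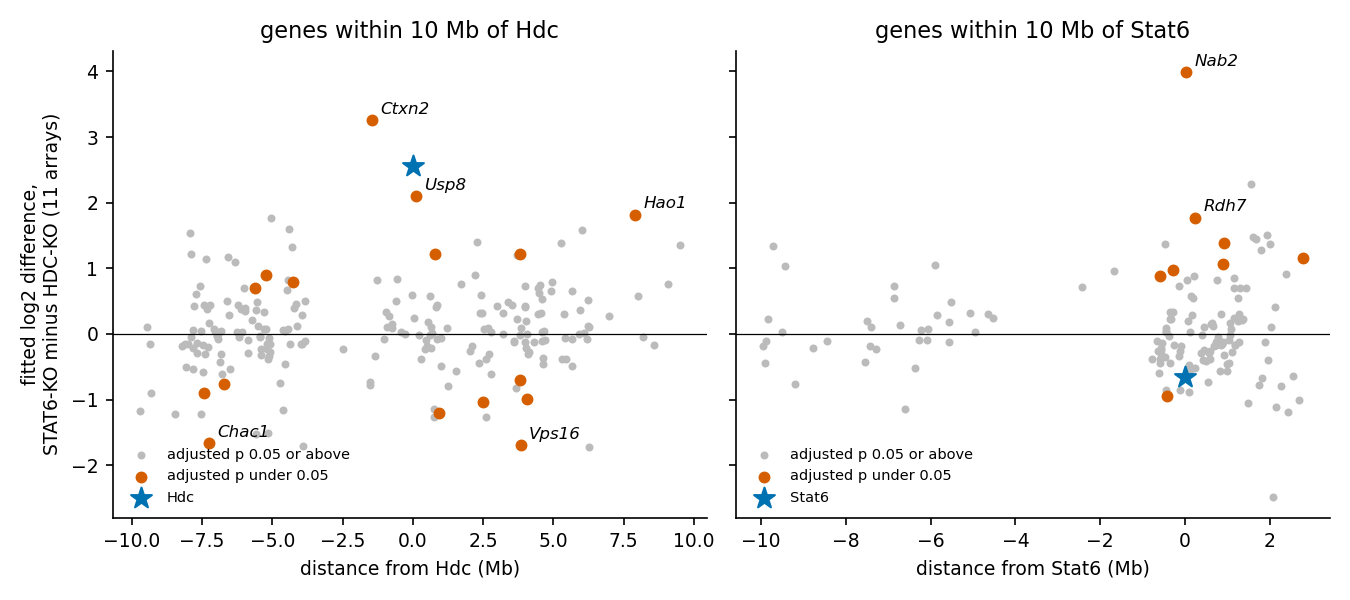
Fitted log2 difference (STAT6-KO minus HDC-KO, 11 arrays) of the genes tested within 10 Mb of Hdc (left) and of Stat6 (right), against the distance from the targeted gene in Mb. Coloured points had an adjusted p under 0.05, 16 around Hdc and 8 around Stat6, and the star is the targeted gene itself.

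Target genes of STAT6 were more often lower than higher in STAT6-KO, although only 2 passed the test. Of 25 targets tested, 0 rose and 2 fell, and 13 were lower and 1 was higher in all 3 pairs, where 21.9% of all autosomal genes tested were lower and 27.6% higher in all 3. The median differences of the list were -0.42 at control, -0.16 at 2 weeks and -0.37 at 4 weeks, beside 0.07, 0.02 and 0.01 over all autosomal genes. Ccl24, the eosinophil attractant eotaxin-2, fell. It was at -2.90, -3.12 and -2.27 in HDC-KO and -4.98, -4.73 and -5.31 in STAT6-KO, with a fitted difference of -2.17 (SE 0.29, adjusted p = 0.00958), and WT, at -2.10, -2.01, -2.81 and -2.09, lay with HDC-KO. Irf4, a factor of macrophage, B cell and plasma cell programmes, fell by 1.62 (adjusted p = 0.0341), from -1.24, -1.83 and -0.52 to -3.74, -2.93 and -1.48. Its groups overlapped, since the STAT6-KO array of 4 weeks was above the HDC-KO array of 2 weeks. Among the knockouts Irf4 was lowest on the STAT6-KO control array, and WT was at -1.73, -4.67, -2.14 and -0.98, the lowest of all at 1 week, which is the order of the B cell genes described further on. Their part in the fall of Irf4 was not tested.

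Targets that did not pass the test included genes commonly used to mark STAT6 activity. Retnla, the secreted protein FIZZ1, was at -1.69, -1.69 and -1.60 in HDC-KO and -2.51, -2.64 and -3.30 in STAT6-KO, with no overlap (-0.97, adjusted p = 0.127). WT, at -2.54, -2.89, -2.95 and -2.71, lay with STAT6-KO. Il1rn, the IL-1 receptor antagonist, was at -0.54, -0.26 and 0.13 and -1.43, -0.68 and -0.91 (-0.57, adjusted p = 0.363), and the transglutaminase Tgm2 at 1.81, 1.30 and 2.60 and 0.30, 1.18 and 1.60 (-0.86, adjusted p = 0.099). Chil3 and Chil4, chitinase-like lectins, differed by 0.20 and 0.54 (adjusted p = 0.63 and 0.123). Arg1, the macrophage arginase, and Ccl22 were left out by the filter on dim probes. The 5 targets with a TTCNNNNGAA pattern had fitted differences between -0.97 (Retnla) and -0.10 (Ccl17), and none of them passed.

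Of the 16 tested genes of IL-4 and IL-13 signalling none passed. That list holds Stat6 itself, the targeted gene, and shares Il4ra, Socs1 and Cish with the target list, so the 2 lists are not independent. In all 3 pairs 10 genes were lower, Stat6 among them, and 1 was higher, against 21.9% and 27.6% of all autosomal genes. The medians were -0.12 at control, -0.27 at 2 weeks and -0.25 at 4 weeks. Irs2, an adaptor of the IL-4 receptor, had the lowest adjusted p, with 2.82, 2.90 and 3.43 in HDC-KO and 2.19, 2.29 and 2.67 in STAT6-KO (-0.62, adjusted p = 0.0825). The kinases Jak1 and Jak2 differed by -0.11 and 0.06 (adjusted p = 0.668 and 0.789).

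**Figure D4:**
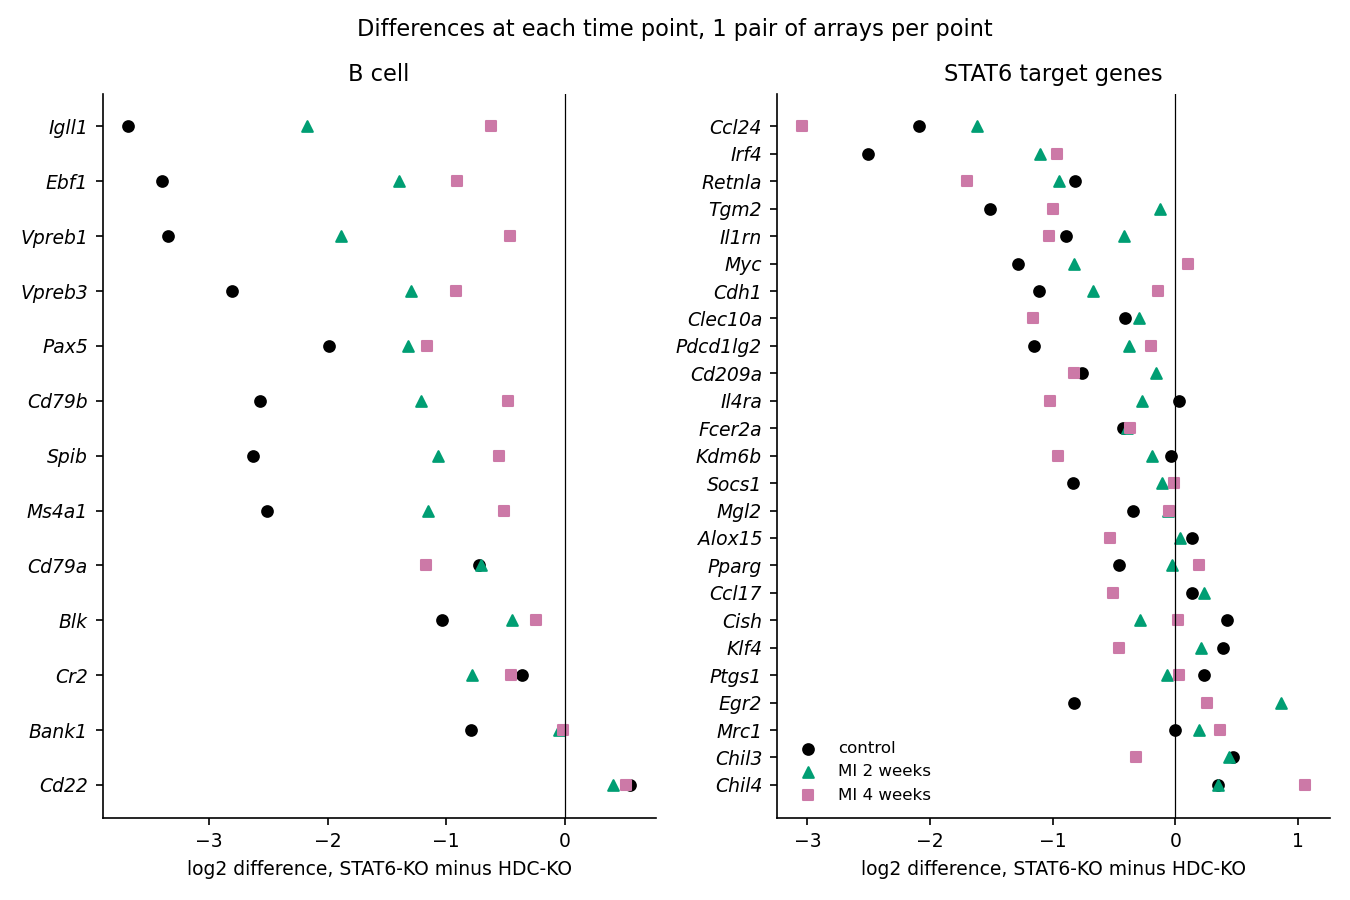
Log2 difference between STAT6-KO and HDC-KO at control (circles), MI 2 weeks (triangles) and MI 4 weeks (squares) for 13 of the 14 tested B cell genes (left) and the 25 tested STAT6 target genes (right), 1 pair of arrays per point. Most B cell genes are lowest at control and nearest 0 at 4 weeks, while Ccl24 and Retnla are lowest at 4 weeks.

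Within the histamine pathway 2 of 9 tested genes rose, Hdc and Hrh4, and 0 fell, where 4.27% of all autosomal genes rose. Hdc is the gene targeted in HDC-KO, so its direction came with the genotype. Of the 9, 7 were higher in all 3 pairs, Hdc among them, against 27.6% of all autosomal genes. The medians of the list were 0.56 at control, 0.08 at 2 weeks and 0.44 at 4 weeks. Hrh4, the H4 receptor of blood cells, was at -3.63, -3.23 and -2.91 in HDC-KO and -1.94, -1.83 and -2.12 in STAT6-KO, with no overlap and a rise of 1.40 (SE 0.30, adjusted p = 0.0409). WT ranged from -4.52 to -2.55, below all 3 STAT6-KO arrays. Hrh1, the H1 receptor, was 0.55 (adjusted p = 0.0733). Hnmt, which inactivates histamine by methylation, was 0.11 (adjusted p = 0.786), and Slc18a2, which loads it into granules, 0.16 (adjusted p = 0.561).

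Cytokine genes did not pass the test. Of 14 tested, 0 rose and 0 fell, and the medians were -0.44 at control, -0.08 at 2 weeks and -0.51 at 4 weeks. Il6 was at -4.04, -4.07 and -2.18 in HDC-KO and -5.00, -4.16 and -3.94 in STAT6-KO (-1.06, adjusted p = 0.171), so that the groups overlapped. Tgfb1, the main fibrogenic TGF-β, was lower in STAT6-KO in each pair, at -0.82, -0.39 and -0.30 and -1.63, -1.08 and -0.74 (-0.54, adjusted p = 0.188), with overlap between the groups. The differences of Il1a were -0.70, -0.09 and -0.59 and those of Il18 -0.70, 0.16 and 0.14 (fitted -0.31 and -0.05, adjusted p = 0.552 and 0.947). The sign of Il18 rested on the control pair: without it the difference was 0.15 over the other 2 pairs.

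Genes of other blood lineages were read as a check on what else the preparations held. Of 14 B cell genes tested, 1 passed the test, while 13 were lower and 1 was higher in all 3 pairs, against 21.9% and 27.6% of all autosomal genes, and the medians were -2.54 at control, -1.18 at 2 weeks and -0.50 at 4 weeks, so that the gap was widest at control. Only Pax5, the factor that fixes B cell identity, passed, falling by 1.48 (SE 0.19, adjusted p = 0.00746) from -1.44, -1.67 and -0.64 in HDC-KO to -3.43, -2.99 and -1.80 in STAT6-KO. Igll1, a surrogate light chain of pre-B cells, was at -0.96, -1.21 and -1.31 and -4.65, -3.38 and -1.93 (-2.36, adjusted p = 0.055). The summed signal of the list ran from 41.8 to 65.4 times the 75th percentile in HDC-KO, from 13.1 to 41.3 in STAT6-KO and from 5.77 to 37.8 in WT, and all 14 genes were above background on the 6 knockout arrays. The lowest sum in WT was that of the 1 week array.

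Several of the genes with the largest falls are known from B cells and stood in the same order. Tnfrsf13c, the BAFF receptor, was at 0.45, -0.54 and -0.35 in HDC-KO and -2.41, -2.11 and -1.32 in STAT6-KO (-1.98, adjusted p = 0.0417). Bach2, a repressor that holds back plasma cell fate, fell by 2.13 (adjusted p = 0.0488) and Dtx1, a Notch regulator, by 2.13 (adjusted p = 0.0266). The scaffold protein Akap12 was at 1.81, 1.31 and 1.35 and -1.60, -0.52 and 0.43 (-2.22, adjusted p = 0.0415), and the ephrin receptor Epha2 at -1.06, -1.56 and -0.96 and -3.98, -3.17 and -2.24 (-2.04, adjusted p = 0.0236). All 5 were lowest on the STAT6-KO control array among the knockouts and lower still in WT at 1 week, as were Pax5 and Igll1. The part of B cells in these falls was not tested. Endou fell by 1.95 (adjusted p = 0.041).

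Falls of another form were flat over time. Habp4, an RNA- and hyaluronan-binding protein, was at -2.64, -2.19 and -2.86 in HDC-KO, -5.05, -5.08 and -4.95 in STAT6-KO and -4.36, -4.61, -4.88 and -4.26 in WT, so that HDC-KO stood apart (-2.37 (SE 0.27, adjusted p = 0.00495)). The nicotinic receptor subunit Chrna5 was at -5.14, -5.34 and -5.33 in HDC-KO and not well above background on any STAT6-KO array, at least 2.30-fold lower (adjusted p = 0.0224). Sval2 was at least 1.78-fold and Olfr1093 at least 1.43-fold lower in the same way (adjusted p = 0.036 and 0.0308), and Olfr1023 differed by -2.86 (adjusted p = 0.0463). The p-values of Chrna5, Sval2 and Olfr1093 rest on STAT6-KO readings that were not well above background.

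None of 17 erythroid genes tested fell and 1 rose, although 14 were lower and 1 was higher in all 3 pairs, against 21.9% and 27.6% of all autosomal genes, and the medians were -1.72 at control, -0.68 at 2 weeks and -0.36 at 4 weeks. The 1 that rose was Sptb, the beta chain of red cell spectrin, by 1.62 (adjusted p = 0.0385). The globin gene Hba-a1 was at 3.29, 2.12 and 3.37 in HDC-KO and 1.25, 1.48 and 2.98 in STAT6-KO (-1.27, adjusted p = 0.25), and the red cell anion exchanger Slc4a1 at 2.02, 0.79 and 2.20 and 0.19, 0.04 and 1.50 (-1.32, adjusted p = 0.177). The summed signal was 37.8 to 70.4 in HDC-KO, 20.7 to 54.4 in STAT6-KO and 14.4 to 91.2 in WT. As with the B cell genes, the gap between the knockouts was widest at control and narrowest at 4 weeks.

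**Figure D5:**
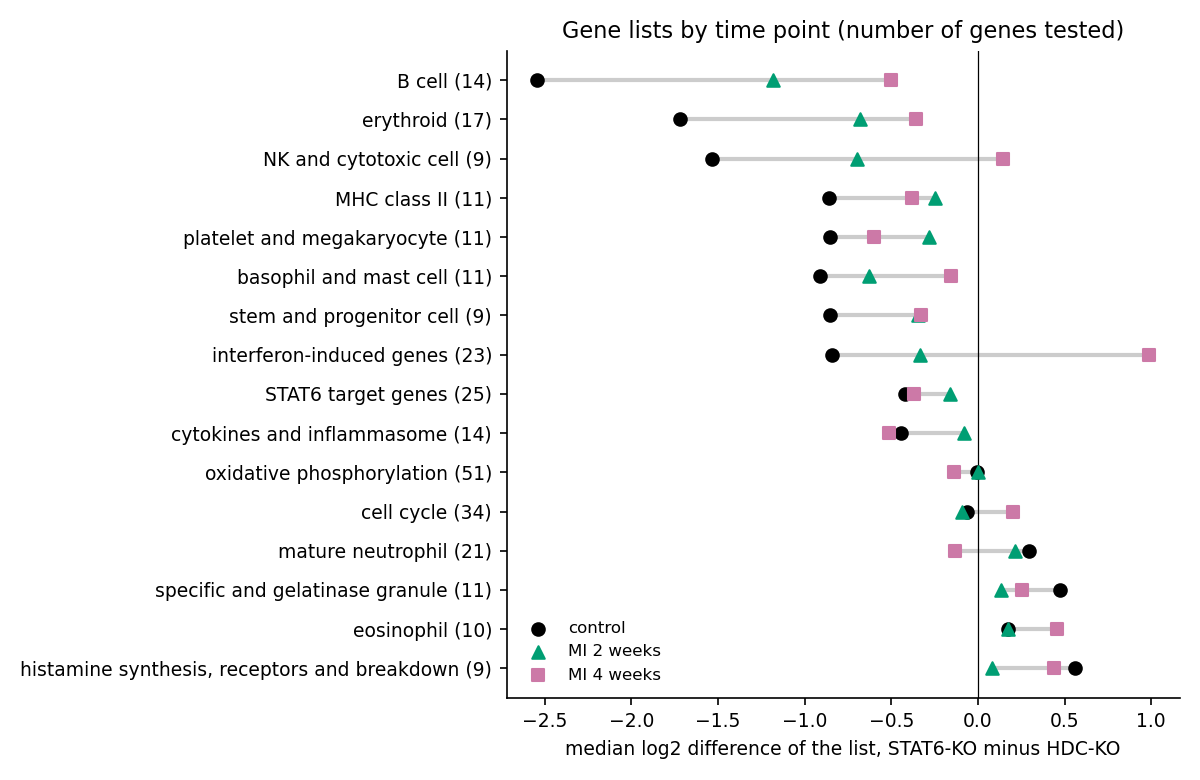
Median log2 difference between STAT6-KO and HDC-KO of 16 gene lists at control (circles), MI 2 weeks (triangles) and MI 4 weeks (squares), with the number of genes tested in brackets. The B cell, erythroid and NK lists are lowest at control, the interferon list crosses 0 between 2 and 4 weeks, and the cell cycle and oxidative phosphorylation lists stay close to 0.

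Plasma cell genes split. Prdm1, the factor BLIMP1, rose by 1.09 (SE 0.14, adjusted p = 0.00725) from -1.62, -1.67 and -1.72 in HDC-KO to -0.44, -0.46 and -0.89 in STAT6-KO, with WT at -1.89, -2.15, -2.12 and -2.14. Tnfrsf17, the receptor BCMA, and Derl3, of the secretory pathway, rose by 1.59 and 0.67 (adjusted p = 0.0428 and 0.0456), whereas Irf4 fell. Jchain, the joining chain of IgM and IgA, was at -0.30, 1.56 and 1.80 and 4.01, 3.35 and 2.77 (2.17, adjusted p = 0.0762). In all, 3 of 8 rose and 1 fell, where 4.27% and 0.806% of all autosomal genes did. In all 3 pairs 4 were higher and 2 lower, against 27.6% and 21.9% of all autosomal genes.

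Of 10 eosinophil genes tested, 1 rose and 0 fell, and 6 were higher and 0 lower in all 3 pairs, against 27.6% and 21.9% of all autosomal genes. Il5ra, the receptor for the eosinophil growth factor IL-5, was at -1.47, -1.08 and -1.71 in HDC-KO, -0.23, -0.06 and -0.16 in STAT6-KO and -1.77, -1.21, -0.87 and -1.31 in WT, a rise of 1.30 (SE 0.18, adjusted p = 0.0113). Ccr3, the receptor through which CCL24 attracts eosinophils, was at -0.86, -1.20 and -0.39 and 0.18, 0.28 and 0.55, also without overlap (1.08, adjusted p = 0.0644). The granule proteins Prg2 and Epx differed by -0.13 and 0.08 (adjusted p = 0.784 and 0.901).

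Of 11 basophil and mast cell genes tested, the basophil protease Mcpt8 fell, from 1.20, 0.97 and 1.03 to -0.43, 0.25 and 0.35 (-1.11, adjusted p = 0.0495), and 5 were lower and 2 higher in all 3 pairs. For this and the next lists, the shares over all autosomal genes were 21.9% lower and 27.6% higher in all 3 pairs. By the test, 0.806% of all autosomal genes fell and 4.27% rose. Prss34, another basophil protease, was -1.07 (adjusted p = 0.0891). Among 12 T cell genes Cd4 rose by 1.27 (SE 0.13, adjusted p = 0.00367), at 0.48, 0.61 and 0.49 in HDC-KO against 1.71, 1.89 and 1.74 in STAT6-KO, and Cd2 fell by 1.55 (adjusted p = 0.0286), while the T cell receptor chain Cd3e was 0.54 (adjusted p = 0.146). Among 9 NK and cytotoxic genes the pore protein Prf1 rose by 0.71 (adjusted p = 0.018) and was the only one higher in all 3 pairs, while 3 were lower in all 3 and the medians of the list were -1.53 at control, -0.70 at 2 weeks and 0.14 at 4 weeks. Ccr7, the lymph node homing receptor on the dendritic cell list, fell by 1.19 (adjusted p = 0.0393), 1 of 10 on that list. Sox4, a progenitor factor, fell by 1.1 (adjusted p = 0.0246), 1 of 9 on the stem and progenitor list. None of 11 platelet and megakaryocyte genes or of 11 MHC class II genes passed, although 8 of each were lower in all 3 pairs, with medians of -0.85 at control, -0.28 at 2 weeks and -0.60 at 4 weeks and -0.86 at control, -0.25 at 2 weeks and -0.38 at 4 weeks.

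The granulocyte genes, the main products of CD11b+ marrow cells, did not pass the test. None of 21 mature neutrophil genes, 7 azurophil granule genes or 11 specific and gelatinase granule genes passed. Ltf, lactoferrin of the specific granules, was at 6.14, 6.21 and 6.33 in HDC-KO and 7.19, 7.22 and 6.73 in STAT6-KO (0.86, adjusted p = 0.0727), and Mpo, myeloperoxidase, differed by -0.42 (adjusted p = 0.303). The medians were 0.29 at control, 0.21 at 2 weeks and -0.14 at 4 weeks for mature neutrophil genes. None of 34 cell cycle genes or of 51 oxidative phosphorylation genes passed, and both lists had medians of -0.03 and -0.02 over the 6 arrays. None of 15 monocyte and macrophage genes passed either, with medians of -0.11 at control, 0.26 at 2 weeks and -0.06 at 4 weeks.

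Interferon-induced genes turned from lower to higher. The medians of the 23 tested were -0.84 at control, -0.33 at 2 weeks and 0.99 at 4 weeks. In all 3 pairs 1 was higher and 1 lower, against 27.6% and 21.9% of all autosomal genes. Ifit3 was at 2.22, 1.75 and 2.93 in HDC-KO and -0.56, 1.00 and 4.86 in STAT6-KO, and Oasl2 at 4.20, 4.06 and 4.59 and 0.58, 1.13 and 4.70. The array of STAT6-KO at 4 weeks was thus the highest of the 6 for Ifit3 and the other 2 STAT6-KO arrays were the lowest. None of the 23 passed (Oasl2 -1.87, adjusted p = 0.257). The summed signal was 168 to 233 in HDC-KO, 106 to 395 in STAT6-KO and 157 to 683 in WT. Of the 7 Oas1 family genes Oas1d alone rose and 0 fell, and of 13 guanylate-binding and immunity-related GTPases Tgtp1 rose by 0.69 (adjusted p = 0.0482). Over all autosomal genes 4.27% rose.

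WT at the same tissue placed each knockout. Of the 732 genes that rose, WT lay between the knockouts for 569, STAT6-KO was farther from WT for 527 and HDC-KO for 205. Of the 138 that fell, HDC-KO was farther for 93 and STAT6-KO for 45. For these counts the WT mean took in the 1 week array, a time point that the knockout means lacked. Over the 9 arrays of the 3 shared time points, 441 genes were higher and 60 lower in STAT6-KO than in WT, and 12 were higher and 7 lower in HDC-KO than in WT, of 17099 tested. These comparisons share the knockout arrays with the main one. Of the 19 genes that differed between HDC-KO and WT, 9 were also called between the knockouts, and 5 lie on chromosome 2 (Hdc, Rbbp9, Dtd1, Vps16 and Chac1), which held 8.44% of the genes tested. Klhl25, an adaptor of a ubiquitin ligase on chromosome 7, was at -0.79, -0.89 and -1.08 in HDC-KO, 1.15, 1.21 and 1.15 in STAT6-KO and 1.32, 1.34, 1.04 and 0.99 in WT (2.08 (SE 0.13, adjusted p = 0.000814)).

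In spleen CD11b+ cells, with arrays at 1, 2 and 4 weeks after infarction, the same contrast called 0 of 16479 autosomal genes (limma, 2731 at an unadjusted p under 0.05). Of the 685 genes that rose in bone marrow and were tested in spleen, 66 were higher in all 3 spleen pairs (9.64%), and 309 were lower in all 3 (45.1%), where 13% and 28.2% of all autosomal genes tested in both tissues were. Of the 132 that fell, 49 were lower in all 3 spleen pairs (37.1%) and 13 higher. A test of the difference between the tissues at the 2 shared time points called 0 of 17142 genes (limma, 2597 at an unadjusted p under 0.05). Hdc, Nab2, Rbbp9, Klhl25, Vps16 and Chac1 kept their direction. The spleen differences at 1, 2 and 4 weeks were 2.36, 2.79 and 2.85 for Hdc, 2.34, 1.54 and 2.45 for Nab2, 2.70, 2.88 and 3.19 for Rbbp9 and 1.79, 1.85 and 2.42 for Klhl25. For Vps16 they were -1.65, -1.64 and -1.90 and for Chac1 -1.68, -1.63 and -1.79. Ccl24 was lower in STAT6-KO spleen by more than in marrow, at -3.67, -3.48 and -4.76, a gap between tissues that did not pass (adjusted p = 0.297). Usp8 did not keep its sign in spleen (-0.81, 0.61 and 0.95). Cd4, Pax5, Il5ra and Prdm1 had fitted spleen differences of -0.27, -0.28, 0.15 and 0.12 (adjusted p from 0.586 to 0.788).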

How the data were processed

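CD11b+ cells from spleen and bone marrow were measured on 1-colour Agilent mouse arrays. The authors deposited Feature Extraction 11.0.1.1 tables, whose processed signal is a background-corrected intensity, and the methods name a threshold of fold over 2 with P under 0.05. The 2 tables with few spots, 1 of HDC-KO spleen without infarction and 1 of STAT6-KO marrow at 1 week, were not analysed here. The 6 arrays had 75th percentile intensities of 1125 to 1762, and 78.3% to 79.8% of probes were well above background. Their number limits the precision. There were no counts.

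From the deposited intensity, log2 values minus the array's 75th percentile were computed over non-control spots, spots of a probe were averaged, and the probe with the highest mean stood for a gene. Genes well above background on at least 2 arrays of a fit were tested with limma 3.58.1 (R 4.3.3, lmFit and eBayes) and Benjamini-Hochberg adjustment over all genes, X, Y and unplaced ones included, after which autosomal genes were counted. The 6-array fit had the time point as pairs. The 11-array fit had additive time point and genotype terms, and all printed adjusted p without another label come from it. A gene below background throughout a group has only a bound on its fold. On simulated data the 6-array fit found 0% of genes changed by a log2 of 2, and the 11-array fit 68% of those and 9% of genes changed by a log2 of 1.

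Named were Hdc and Stat6, Il1a, Il6, Il18 and Tgfb1, the 12 largest rises and 12 largest falls with an adjusted p under 0.05, up to 4 members of each list by adjusted p with up to 2 defining members, and up to 6 neighbours of each targeted gene. Dtd1, Klhl25, the gene families and the other genes named were chosen after their values were seen. The members and lists were chosen with earlier results of these data known. Alternatives changed background correction, scaling, filters, probes, pairing and arrays. Promoters and gene positions are from RefSeq (GRCm38.p6), used for sequence and neighbourhood. For 1 gene of the B cell list, counted in the list, values of its own are not reported here.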

Additional observations from a re-analysis of the deposited data

Results flagged for a closer look

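Of the 53 named genes that passed and are followed below, 11 had all 3 bone marrow pairs on one side and all 3 spleen pairs on the other. Only genes tested in spleen could count. Among all calls tested in spleen, 309 of 685 that rose and 13 of 132 that fell were opposite in all 3 spleen pairs. The bone marrow mean difference minus the spleen mean difference was 7.0 on the log2 scale for Tmem100 (3.75 in bone marrow and -3.25 in spleen), 6.90 for Vmn1r174 (4.01 and -2.89) and 5.44 for Plaat5 (3.41 and -2.03). These sizes are not measured ones for Tmem100 and Vmn1r174, which were not well above background on any HDC-KO array of bone marrow or any STAT6-KO array of spleen, nor for Plaat5, which was above it on only some of the arrays. It was -2.34 for Endou, 2.12 for Erbb3, 1.97 for Sptb, 1.96 for Hrh4, 1.39 for Prf1, 1.34 for Marchf9, 1.27 for Vmn2r85 and -1.15 for Kif5a. In the limma test of the difference at 2 and 4 weeks their adjusted p ran from 0.0767 (Tmem100, Vmn1r174 and Sptb) to 0.302 (Kif5a), so none passed.

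Xist, which lies outside the autosomal comparison, gave a signal above WT in the 3 HDC-KO arrays of the pairs. Their mean exceeded the WT mean by 7.01 on its brighter probe and by 3.16 on the other.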

How the results depend on the processing

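The count of autosomal genes called over the 6 arrays was 0 with the pairing by time point, and with quantile normalization, median or detected-probe scaling, no filter, mean probes or a pair left out it was 0 as well. It was 137 with normexp background correction, 55 with a floor on low signals, 96 with probes above background on every array, 326 without the pairing by time point (replicate block removed), 297 with trended and robust eBayes, 557 over 9 arrays and 870 over 11 arrays. The methods' threshold gave 793 genes, and 46 after Benjamini-Hochberg adjustment. The labels give no replicate numbers.

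Over 11 arrays, normexp left 335 calls, 320 of them among the 870, and leaving out the arrays of 1 time point left 11 to 557. Of 53 named genes that passed and were followed through the alternatives, 34 were tested under every processing alternative. Of these, 18 passed under each, Hdc, Nab2, Ccl24, Pax5 and Cd4 among them. Dtd1, Klhl25, Itpa and Ctxn2 also passed but were not followed in this way. Of the 53, 26 passed with normexp and 7 of 51 without the MI 2 weeks arrays (Hdc, Ces2f, Sprr2e, Nab2, Ankfn1, Cts7 and Rbbp9). Scaling to the median moved the median of all genes by -0.14. The median difference of the STAT6 target genes was then -0.53, and -0.42 to -0.24 with a pair left out. That of the cytokines was -0.54 after quantile normalization. Spleen gave 1 call after quantile normalization.

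Signs turned for Il18, 3 pairs (-0.28 to 0.15 with a pair left out) and Il18, 11 arrays (-0.22 to 0.29 with a time point left out). They turned for Prom2, 3 pairs (0.077 with a floor, 0.32 with mean probes) and Prom2, 11 arrays (0.18 and 0.29). The cause was not tested. The test between tissues could not be fitted with a time point left out, and no fit with slide as a block was possible, since each slide holds 1 genotype.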

Other observations

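Both knockouts stood far from WT for Oas1a, an oligoadenylate synthetase. Its levels were 4.01, 3.82 and 4.98 in HDC-KO and 3.18, 3.34 and 5.44 in STAT6-KO, against -6.47, -5.61, -3.61 and -3.39 in WT, while the knockouts differed by -0.42 (adjusted p = 0.673). Oas1f and Oas1g showed the same order, with WT at -3.94 to -2.85 and -9.14 to -8.08 and the lowest knockout arrays at 2.11 and -4.30. Of the 7 Oas1 family genes, 4 to 5 were well above background on the WT arrays. On the HDC-KO arrays 7 were, and on the STAT6-KO arrays 6 to 7. The lowest WT readings here need not be measured levels.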
